A study of Homo sapiens with 38 samples.

Results

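KRT8, KRT18, KRT19, VIM, NES, LMNA and LMNB1 encode proteins of the intermediate filament family, and their rows were taken by symbol, which gave 7 of the 57133 genes in the count table. All 7 were among the 16674 genes with enough counts to be tested. Intermediate filaments are rope-like polymers that give cells and nuclei mechanical strength. Keratins assemble as pairs of a type II chain, such as keratin 8, with a type I chain, such as keratin 18 or 19, and are the filaments of simple epithelia and of the early embryo. Vimentin is the filament of mesenchymal cells and also of many cultured cells, nestin co-assembles with vimentin in neural and other progenitors, and the lamins A/C and B1 line the inner face of the nuclear membrane.

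RNA was measured in 38 libraries of Shef6, a human embryonic stem cell line, by QuantSeq, which reads the 3′ ends of transcripts. All cells came from a naive population adapted to serum coating and kept in PXGL (also labelled PXGLY), which holds the MEK inhibitor PD0325901, the tankyrase inhibitor XAV939, the PKC inhibitor Gö6983 and the cytokine LIF. Naive cells at day 0 were sampled on serum coating and on Geltrex in a first experiment (Ex1) and on Geltrex in a second (Ex2), with 2 libraries each. From there cells were plated on Geltrex with a ROCK inhibitor at day 0 in N2B27, a serum-free basal medium, or in E8 or mTeSR, commercial media whose components include FGF2 and a ligand of the TGFβ family. In Ex1 mTeSR was sampled at days 4, 6 and 8, and both other media were also sampled at days 2 and 3. Ex2 held 3 conditions at day 4, namely N2B27, N2B27 with the tankyrase inhibitor XAV939 (XAV), and FAX, in which FGF2 and Activin A were added along with XAV939. Each of these 19 groups had 2 libraries, all from 1 cell line, and the study's legends call them technical replicates in most places and biological replicates in one. The p-values measure the spread between these libraries, which may be technical. Where the 6 naive libraries or the 4 of N2B27 at day 4 were pooled, this spread also holds differences between experiments and, for naive cells, coatings. The 2 naive libraries of Ex2 carry day 4 in their library names, while their titles and time field give day 0, and they were taken as day 0. With the naive libraries of Ex1 alone as reference, the numbers of the 7 genes called at day 8 were the same.

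Libraries held between 3038046 and 5612354 counts (median 4427277). CPM values are counts divided by the TMM-adjusted size of their library, which compare a gene between libraries but not 1 gene with another. A gene was called where edgeR's quasi-likelihood test gave a Benjamini-Hochberg adjusted p under 0.05 over all genes tested and a log2 fold change above 1 in size. The 7 pluripotency markers (POU5F1, SOX2, NANOG, LIN28A, LIN28B, TDGF1 and PODXL) were all detected, with a summed level of 2166 to 2719 CPM in naive cells and 3003 to 3997 CPM at day 8. The 4 naive markers (KLF17, DPPA5, DNMT3L and SUSD2) summed to 793 to 1038 CPM in naive cells and 256 to 325 CPM at day 8, and all 4 were called lower at day 8 in each of the 3 media. Over all genes tested, 23.9% were called at day 8 against naive in N2B27, 27.5% in E8 and 25.1% in mTeSR, in either direction. Naive libraries of the 2 experiments stood apart, since 4.67% of genes tested were called between Ex2 and Ex1 on Geltrex. None of the 7 filament genes was among them by edgeR or DESeq2, and 1 had an unadjusted p under 0.05.

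Against naive cells KRT8, KRT18, VIM and NES were called higher in all 15 combinations of medium and day, KRT19 in 8, LMNA higher in 1 and lower in 1, and LMNB1 in none. In N2B27 4, 4, 5, 5 and 5 genes were called at days 2, 3, 4, 6 and 8, all of them higher, where 16.2, 15.6, 18.4, 23.1 and 23.9% of genes tested were called. In E8 5, 4, 4, 5 and 5 were called higher at those days, where 24.6, 17.8, 20.8, 23.3 and 27.5% were. In mTeSR 5 were called higher at days 4 and 6, and 5 higher and 1 lower at day 8, where 19.8, 22.5 and 25.1% of genes tested were called. With XAV and FAX at day 4, 4 genes were called higher in each, where 17 and 17.1% were. The median log2 fold change of the 7 genes at day 8 was 2.84 in N2B27, 2.75 in E8 and 2.14 in mTeSR, beside medians of -0.03, 0.00 and -0.02 over all genes tested. These 15 comparisons share the 6 naive libraries, and N2B27 at day 4 pooled 2 libraries from each experiment.

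**Figure D1:**
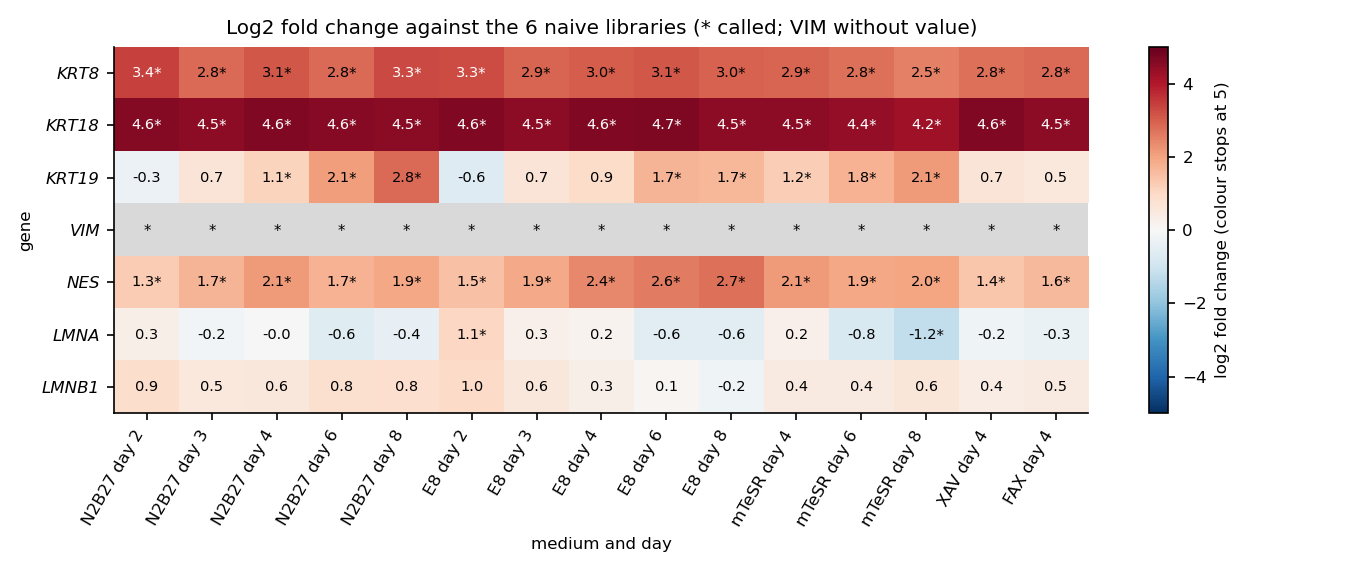
Log2 fold change of each gene in each medium and day against the 6 naive libraries, on a colour scale that stops at 5. Asterisks mark calls. The VIM row is grey and has no values because its naive total was 3 counts. KRT8, KRT18, VIM and NES are called in all 15 columns, and LMNB1 in none.

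Between media few of the 7 genes were called. For E8 against N2B27, 1 gene (VIM) was called at each of days 2, 3 and 4, none at day 6 and 2 (KRT19 and LMNB1, both lower) at day 8, where 4.55, 1.68, 2.49, 5.28 and 7.29% of genes tested were called. For mTeSR against N2B27, VIM was called at day 4 and none at days 6 and 8, where 1.58, 2.62 and 3.8% were. For mTeSR against E8 none was called at days 4, 6 and 8, where 0.084, 1.1 and 5.31% were. None was called for XAV (0.57%), FAX (0.336%) or FAX against XAV (0.012%) either, nor for the coating of naive cells. In these comparisons without a call edgeR gave unadjusted p under 0.05 for 0 to 6 of the 7 genes, 6 of them in mTeSR against E8 at day 8, and DESeq2 called none.

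VIM gave 3 counts in all over the 6 naive libraries, 0 in 5 of them and 3 (0.541 CPM) in replicate 2 on Geltrex in Ex1. A count of 0 allowed a level of up to 0.655 to 1.02 CPM in those 5 libraries, by counting error alone. The gene spans chr10:17228241-17237593 on the plus strand of GRCh38, with 10 exons. Its promoter, from 250 bases before to 50 after the RefSeq start (chr10:17227991-17228290, plus strand, GRCh38.p14), is shown because VIM went from near 0 to a called level in every condition, with its GC box in capitals.

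VIM: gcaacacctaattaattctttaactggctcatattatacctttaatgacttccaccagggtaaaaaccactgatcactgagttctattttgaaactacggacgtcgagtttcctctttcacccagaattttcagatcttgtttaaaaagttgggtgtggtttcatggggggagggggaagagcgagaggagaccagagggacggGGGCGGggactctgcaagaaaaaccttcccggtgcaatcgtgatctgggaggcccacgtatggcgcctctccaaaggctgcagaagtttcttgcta

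In N2B27 VIM rose with each sampled day. Its levels were 3.0 and 1.42 CPM at day 2, 5.66 and 8.61 at day 3, 9.53 and 10.8 at day 4 in Ex1, 42.3 and 31.6 at day 6, and 77.3 and 89.8 at day 8. No library of a later day was as low as a library of an earlier day. The change over days 2 to 8 was called (F-test, adjusted p = 3.34e-15), as it was for 51.5% of genes tested.

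In E8 both VIM libraries lay above those in N2B27 at each day from 2 to 6, and the libraries of the 2 media overlapped at day 8. VIM was at 5.31 and 15.1 CPM at day 2, 28.8 and 19.2 at day 3, 35.1 and 36.3 at day 4, 49.5 and 57.6 at day 6, and 81.9 and 67.8 at day 8. The change over days was again called (adjusted p = 1.3e-09, against 53.3% of genes tested). In mTeSR the levels were 55.3 and 53.7 CPM at day 4, 56.2 and 56.5 at day 6, and 67.9 and 67.4 at day 8, and no change over these days was called (adjusted p = 0.482, with 19.4% of genes tested called). At day 8 the 6 libraries of the 3 media lay between 67.4 and 89.8 CPM.

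**Figure D2:**
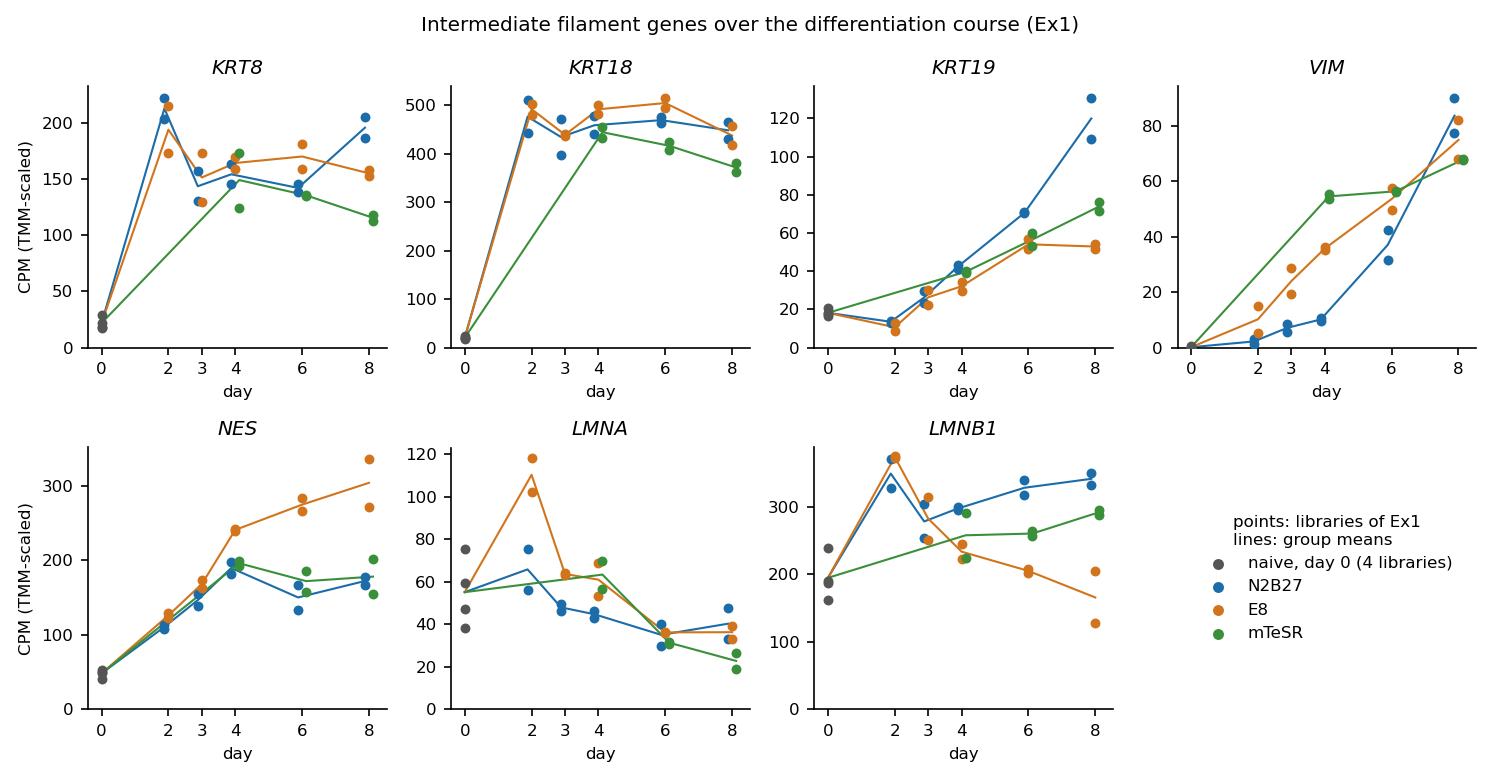
CPM of the 7 genes in Ex1 against the day of culture, on linear axes. Points are libraries, lines join group means from the 4 naive libraries of Ex1, and mTeSR has no library before day 4. VIM reaches 53.7 to 55.3 CPM by day 4 in mTeSR but 9.53 to 10.8 in N2B27, while at day 8 mTeSR lies at 67.4 to 67.9 CPM and N2B27 at 77.3 to 89.8.

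The difference between mTeSR and N2B27 in VIM, a marker of mesenchymal cells, depended on the day. At day 4 the 2 mTeSR libraries (55.3 and 53.7 CPM) lay far above the 2 N2B27 libraries of Ex1 (9.53 and 10.8 CPM), and VIM was 5.36-fold higher in mTeSR (log2 fold change 2.42, 95% interval 1.93 to 2.92, adjusted p = 1.57e-07). At day 6 the log2 fold change was 0.61 (interval 0.18 to 1.04, adjusted p = 0.0651), and at day 8 it was -0.31 (interval -0.71 to 0.10, adjusted p = 0.375). The course itself differed between mTeSR and N2B27 (medium by day F-test, adjusted p = 9.71e-06), as it did for 2.18% of genes tested. VIM was the only one of the 7 genes called at day 4, where 1.58% of genes tested were called.

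The size of the day 4 difference depended on which N2B27 libraries served as reference. The N2B27 libraries of Ex2 held 22.4 and 20.2 CPM of VIM at day 4, 2.1-fold above those of Ex1 (log2 fold change 1.07, adjusted p = 0.0187, with 1.01% of genes tested called). That call between experiments was lost when any one of the 4 libraries was left out, with values of 0.98 to 1.16 and adjusted p of 0.0981 to 0.154. With N2B27 of both experiments as reference, a choice made after seeing the data, the mTeSR difference was 1.83 (adjusted p = 4.65e-05). All 4 N2B27 libraries stayed below both mTeSR libraries.

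E8 also stood above N2B27 at the early days. The log2 fold change of VIM was 2.17 at day 2 (SE 0.43, adjusted p = 0.0011), 1.71 at day 3 (SE 0.28, adjusted p = 0.00032) and 1.81 at day 4 (SE 0.25, adjusted p = 1.24e-05). It was 0.54 at day 6 (adjusted p = 0.0829) and -0.16 at day 8 (adjusted p = 0.63), and the course differed from that in N2B27 (adjusted p = 8.32e-05, against 11% of genes tested). The day 2 call rested on 1 library, since without replicate 2 of E8 the value was 1.24 (adjusted p = 0.193). At day 3 the value was 1.74 with adjusted p = 0.126 when only the compared libraries were fitted. The comparisons of E8 and of mTeSR with N2B27 share the N2B27 libraries. Between mTeSR and E8 themselves, VIM gave log2 fold changes of 0.61 at day 4 (interval 0.18 to 1.04, adjusted p = 0.335), 0.07 at day 6 and -0.15 at day 8.

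Because the naive total of VIM was 3 counts, fitted fold changes against naive cells depend on the prior count and are not given, and ratios of pooled counts carry wide counting intervals. The ratio was 19.5 (95% exact interval 5.82 to 102) in N2B27 at day 2 and 719 (245 to 3495) at day 8. It was 646 (220 to 3142) in E8 at day 8 and 578 (197 to 2814) in mTeSR at day 8. Reads of VIM-AS1, which overlaps the start of VIM by 1778 bases on the other strand, totalled 39 counts in the 38 libraries against 5111 for VIM.

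VIM was not called between N2B27 and its supplemented forms at day 4. In Ex2 the levels were 12.1 and 14.3 CPM with XAV, 13.0 and 14.2 with FAX, and 22.4 and 20.2 in N2B27 alone, with both supplemented media below N2B27 in every library. The log2 fold changes of -0.69 for XAV (interval -1.22 to -0.15, adjusted p = 0.302) and -0.64 for FAX (interval -1.19 to -0.10, adjusted p = 0.426) missed the threshold, and FAX differed from XAV by 0.04 (interval -0.53 to 0.61). Both FAX libraries lay below the day 4 libraries of E8 (35.1 and 36.3 CPM) and of mTeSR, which came from the other experiment and were not tested against it.

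**Figure D3:**
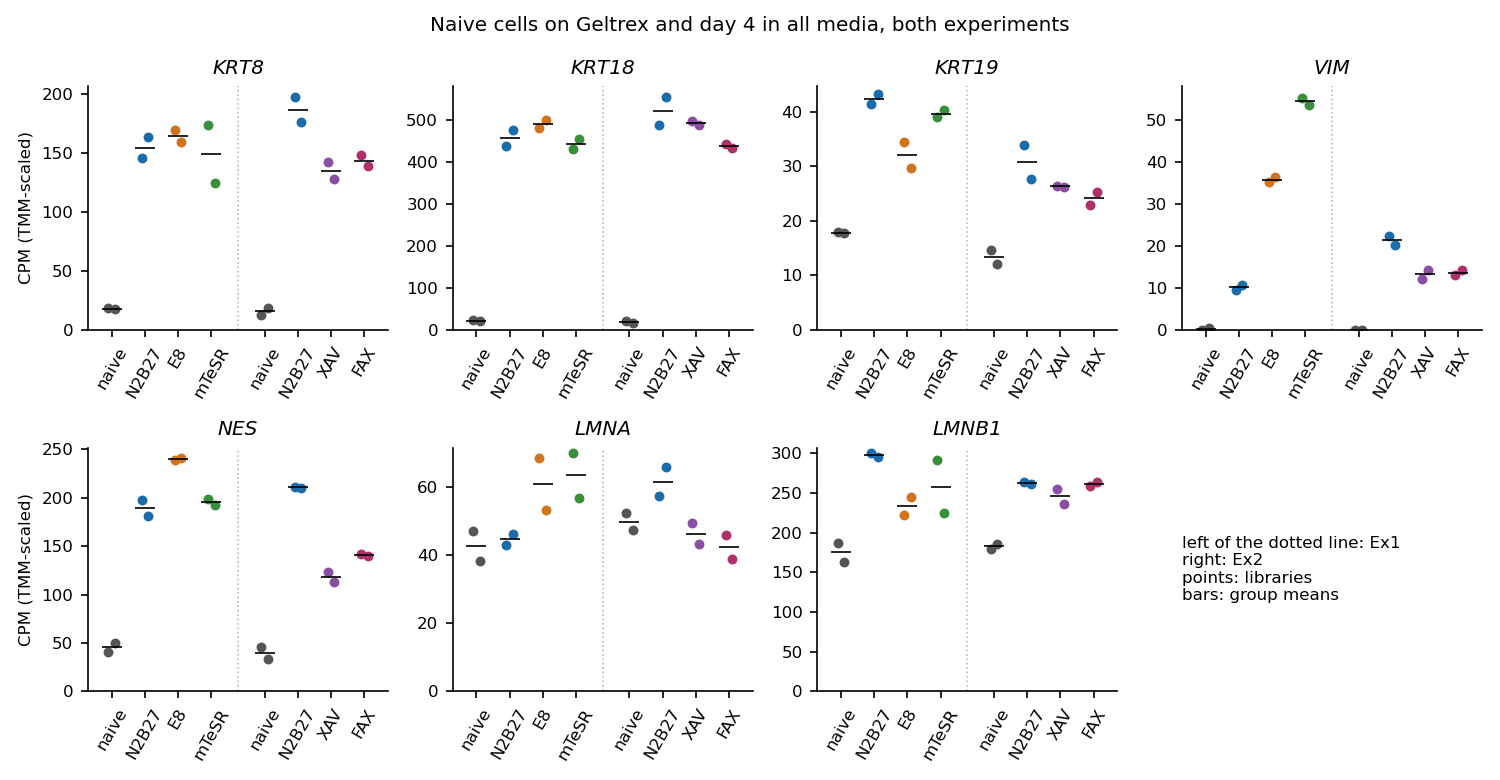
CPM of the 7 genes in naive cells on Geltrex and at day 4 in every medium, with Ex1 left and Ex2 right of the dotted line. Points are libraries and bars are group means of 2. VIM spans 9.53 to 55.3 CPM over the day 4 libraries, and NES is lower with XAV and FAX than in N2B27 of Ex2.

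Markers of other cell types were read beside VIM, since in bulk RNA fewer cells of a type and less RNA per cell cannot be told apart. At day 4, 3 of the 4 mesoderm markers (TBXT, MIXL1, EOMES and MESP1) passed the filter, and all 3 were called lower in mTeSR than in N2B27. Over all genes tested 1.58% were called in this comparison, a share that also stands beside the neural progenitor and fibroblast counts below. The list summed to 15.1 to 18.2 CPM in mTeSR, 60.2 to 60.7 in N2B27 of Ex1 and 31.3 to 41.4 in N2B27 of Ex2, and to 8.56 to 11 in E8. With N2B27 of both experiments as reference TBXT was called (log2 fold change -1.68, adjusted p = 0.000454) and MIXL1 and EOMES were not (adjusted p = 0.1 and 0.17). PAX6, 1 of 3 neural progenitor markers tested, was also called lower in mTeSR, from 6.25 to 2.44 CPM (log2 fold change -1.35, adjusted p = 0.0374). Of the 8 fibroblast markers 5 passed the filter and none was called by edgeR or DESeq2 between mTeSR and N2B27 at day 4 (3 had an unadjusted p under 0.05). The list summed to 80.9 to 87.5 CPM in mTeSR and to at least 94.8 CPM in N2B27 of Ex1, but to 86.8 to 88.7 CPM in N2B27 of Ex2, which overlapped mTeSR, and no library of these groups held more than 3 counts of COL3A1, LUM, DCN or PRRX1.

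Markers of other cell types also moved with VIM between naive cells and day 8. All 5 markers of hypoblast or endoderm were called higher in each medium, where 25.1% (mTeSR), 27.5% (E8) and 23.9% (N2B27) of all genes tested were called in either direction. Their sum, 0.683 to 4.21 CPM in naive cells, was 18.1 to 22.7 CPM in E8, 82.3 to 85.2 in mTeSR and 152 to 171 in N2B27. In naive cells on Geltrex in Ex1 none of the 5 exceeded 3 counts. Genes that low in naive cells pass the filter through later groups and could hardly be called lower, so the share over all genes is no like measure for them. The same limit holds for TBXT, which did not exceed 3 counts in any naive library. The 3 mesoderm markers tested were called higher at day 8 in N2B27 and in mTeSR, and 2 of 3 in E8. The mesoderm list summed to 35.2 to 37.9 CPM in E8, 146 to 193 in mTeSR and 219 to 290.4 in N2B27. Of the 5 fibroblast markers tested, 3 were called higher in each medium, and the list rose from 4.80 to 7.63 CPM in naive cells to 104 to 106 in E8, 136 to 152 in mTeSR and 167 to 176 in N2B27, with DCN never above 3 counts. Most of this sum was COL1A2 (means of 64.6 CPM in E8, 121 in mTeSR and 140 in N2B27) and COL1A1 (36.4, 18.8 and 22.6). At day 8 COL3A1, LUM and PRRX1 did not exceed 3 counts in E8 or mTeSR either, nor did POSTN in N2B27. Of 3 neural progenitor markers tested, 2 were called higher (PAX6 and MSI1) and 1 lower (FABP7) in each medium, and SOX1 never exceeded 3 counts. The part of such cells in the rise of VIM was not tested.

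KRT8 and KRT18, the keratin pair of simple epithelia, were both called higher by day 2. They lie side by side on chromosome 12, KRT8 at chr12:52897187-52949954 on the minus strand and KRT18 at chr12:52948871-52952906 on the plus strand, where the annotated spans overlap by 1084 bases at their starts, away from the 3′ ends that were read. In the 6 naive libraries KRT8 ranged from 12.6 to 28.8 CPM (median 18.5). At day 2 it stood at 203 and 223 CPM in N2B27 and at 173 and 215 CPM in E8. It was called higher than naive in all 15 combinations, with log2 fold changes from 2.53 (mTeSR at day 8) to 3.41 (N2B27 at day 2).

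The promoters of KRT8 (chr12:52926420-52926719, minus strand) and of NES (chr1:156677358-156677657, minus strand), the 2 other genes called higher in every condition that matched a RefSeq promoter, are shown on the same build. The KRT8 window belongs to the RefSeq start, which lies inside the annotated span and apart from the end that overlaps KRT18. Capitals mark GGAATG, a core of TEAD sites, in KRT8 and CCGCCC, the GC box read on the opposite strand, in NES.

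KRT8: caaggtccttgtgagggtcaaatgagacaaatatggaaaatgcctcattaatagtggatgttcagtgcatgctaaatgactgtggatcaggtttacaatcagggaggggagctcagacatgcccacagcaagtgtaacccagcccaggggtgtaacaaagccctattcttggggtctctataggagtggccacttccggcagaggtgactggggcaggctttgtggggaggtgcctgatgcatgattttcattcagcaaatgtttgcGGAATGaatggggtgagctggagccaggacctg
NES: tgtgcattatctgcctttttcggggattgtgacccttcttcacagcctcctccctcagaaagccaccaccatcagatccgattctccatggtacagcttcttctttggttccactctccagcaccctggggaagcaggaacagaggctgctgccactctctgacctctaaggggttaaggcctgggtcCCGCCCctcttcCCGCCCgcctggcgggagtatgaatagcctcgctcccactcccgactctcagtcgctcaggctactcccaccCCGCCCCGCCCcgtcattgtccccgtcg

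Both strands of each window were searched for the TATA box as TATAAA, for the GC box as GGGCGG, for the AP-1 site as TGANTCA, for the TEAD site as GGAATG and for an E-box as CACCTG. The GC box occurred once in VIM, 4 times in NES (the last pair overlapping by 1 base) and not in KRT8, and 45% of the 35116 RefSeq promoters of that length hold it. The TEAD letters occurred once in KRT8 and in 14% of all promoters. None of the 3 windows held the TATA box (11.5% of promoters), the AP-1 site (7.71%) or the E-box (20.6%). LMNA and LMNB1 also had promoter entries, KRT18 and KRT19 had none. These matches describe letters in a window and nothing of the factors. Reads of 3′ ends do not show whether these RefSeq starts were the ones used in these cells.

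KRT18, the partner chain of keratin 8, was called higher at every sampled day. Its 6 naive libraries held 17.4 to 23.1 CPM (median 19.8), and it stood at 442 and 510 CPM in N2B27 and at 480 and 503 CPM in E8 by day 2. From then on every library lay between 363 CPM (mTeSR at day 8) and 555 CPM (N2B27 at day 4 in Ex2). Log2 fold changes against naive ran from 4.23 to 4.67 over the 15 combinations, all called. No change over days was called in any of the 3 media, with adjusted p of 0.697 for N2B27, 0.137 for E8 and 0.12 for mTeSR. With pseudogene rows added, the E8 change was called (adjusted p = 0.00244).

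Counts of KRT18 are uncertain to the extent that its processed pseudogenes share sequence with it. In the last 300 bases of its canonical transcript, 97 of 251 windows of 50 bases, the read length, also occurred in transcripts of 11 of its pseudogenes. The 67 pseudogene rows held 9500 counts, 12.5% of the combined total, and from 4.63 to 27% by library, the highest being replicate 2 of E8 at day 2. For KRT8 and KRT19, 1.2% and 2.39% of such windows were shared with another gene, and for VIM, NES, LMNA and LMNB1 none was. All 15 calls of KRT18 against naive held when the pseudogene rows were added.

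Neither gene of the keratin pair was called between media on any day. At day 4 mTeSR minus N2B27 was -0.05 for KRT8 (interval -0.34 to 0.24, adjusted p = 0.906) and -0.05 for KRT18 (interval -0.24 to 0.14, adjusted p = 0.856). At day 8 KRT8 held 113 and 118 CPM in mTeSR and 187 and 205 CPM in N2B27, a log2 fold change of -0.76 (interval -1.06 to -0.46, adjusted p = 0.000577), under the fold threshold. KRT18 held 380 and 363 CPM in mTeSR and 466 and 431 in N2B27 at that day (log2 fold change -0.27, adjusted p = 0.0602). In E8 at day 8 KRT18 differed from N2B27 by -0.03 (interval -0.22 to 0.16). KRT8 changed over days in N2B27 (adjusted p = 0.00109), where the highest levels were at days 2 and 8, and its course in mTeSR against N2B27 missed the threshold (adjusted p = 0.0691), but was called without a count filter (adjusted p = 0.00561) and without replicate 2 of mTeSR at day 4 (adjusted p = 0.0199).

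KRT19, a smaller type I keratin of simple epithelia, was called higher than naive later than KRT8 and KRT18. It lies on chromosome 17 (chr17:41523617-41528308, minus strand). Naive libraries held 12.2 to 20.6 CPM (median 17.1), and day 2 libraries held 14 and 13.1 CPM in N2B27 and 8.49 and 12.8 CPM in E8. The E8 value at day 2 was under naive cells by -0.65 (adjusted p = 0.0146), below the fold threshold and with overlapping libraries. In N2B27 KRT19 then stood at 23.1 and 29.4 CPM at day 3, 41.4 and 43.2 at day 4 in Ex1, 70.9 and 70.3 at day 6, and 131 and 109 at day 8. The change over days was called in all 3 media, with adjusted p of 3.05e-16 for N2B27, 3.08e-11 for E8 and 0.000164 for mTeSR. It was called higher than naive in 8 of the 15 combinations, all of them at day 4 or later, and the call in N2B27 at day 4 (log2 fold change 1.13) was lost against naive cells on serum alone (0.998). The E8 value at day 4 (0.936) was not called, but passed the fold threshold without replicate 1 on serum coating (1.005) or replicate 2 of E8 (1.039).

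The course of KRT19 parted between E8 and N2B27 (adjusted p = 0.00308). E8 libraries held 34.5 and 29.8 CPM at day 4, 56.8 and 51.5 at day 6, and 51.7 and 54.2 at day 8, so that day 8 was 2.27-fold lower than in N2B27 (log2 fold change -1.18, interval -1.46 to -0.90, adjusted p = 1.81e-07). In mTeSR the levels were 39.1 and 40.3 CPM at day 4, 53.3 and 59.9 at day 6, and 76.3 and 71.6 at day 8. The mTeSR difference from N2B27 at day 8 was -0.70 (adjusted p = 0.000887), and that from E8 was 0.48 (adjusted p = 0.0223), both under the fold threshold. At day 4 N2B27 of Ex2 held 33.9 and 27.6 CPM of KRT19, below Ex1 without a call (log2 fold change -0.46, adjusted p = 0.0921).

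NES, which encodes nestin, rose in every condition, to its highest level in E8 at day 8. It lies at chr1:156668763-156677407 on the minus strand. The naive libraries held 33.2 to 52.5 CPM (median 47.1). In N2B27 the levels were 107 and 113 CPM at day 2, 155 and 138 at day 3, 198 and 181 at day 4 in Ex1, 167 and 133 at day 6, and 167 and 177 at day 8. In E8 they were 129 and 122 CPM, 173 and 163, 239 and 242, 266 and 283, and 336 and 271 on the same days, each day's 2 libraries above those in N2B27. NES was called higher than naive in all 15 combinations, with log2 fold changes from 1.28 to 2.75.

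E8 exceeded N2B27 in NES by 0.87 at day 6 (SE 0.13, adjusted p = 1.33e-05) and 0.82 at day 8 (SE 0.13, adjusted p = 1.93e-05), both under the fold threshold, and the course differed (adjusted p = 0.0114). Without replicate 1 of N2B27 at day 6 that day's value was 1.05 and called. In mTeSR NES held 199 and 192 CPM at day 4, 186 and 158 at day 6, and 155 and 201 at day 8, and at day 4 it differed from N2B27 by 0.05 (interval -0.21 to 0.31). The mTeSR level was below that in E8 by -0.68 at day 6 (adjusted p = 0.00132) and by -0.77 at day 8 (adjusted p = 8.76e-05). NES was also the only one of the 7 genes to pass the adjusted p for the supplements of N2B27. In Ex2 it stood at 212 and 210 CPM in N2B27, 124 and 113 with XAV (log2 fold change -0.83, adjusted p = 0.00023) and 142 and 140 with FAX (log2 fold change -0.58, adjusted p = 0.0199).

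**Figure D4:**
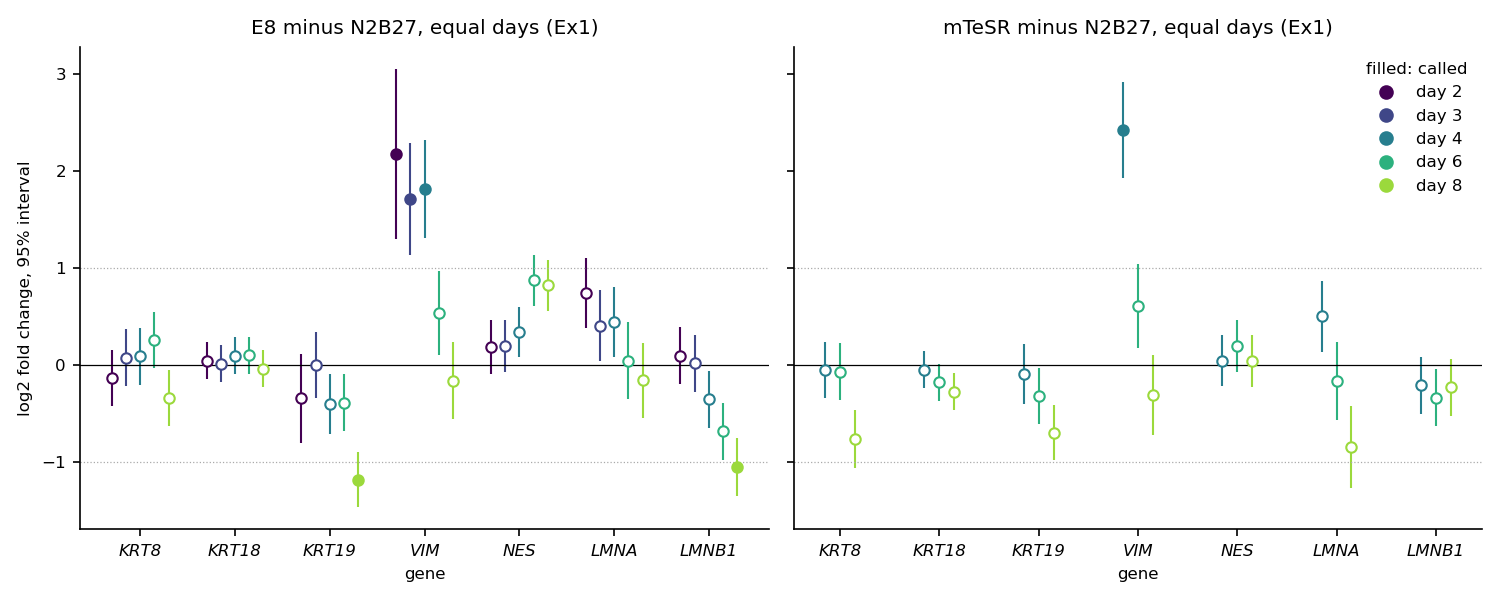
Log2 fold change of each gene between E8 and N2B27 (left) and between mTeSR and N2B27 (right) at equal days in Ex1, with 95% intervals, 2 libraries a side. Filled points are called and dotted lines mark a change of 1. VIM starts above 1 at the early days in both media and ends near 0, while KRT19 and LMNB1 are called lower in E8 at day 8.

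The lamin genes were called in fewer comparisons. LMNA, which encodes lamins A and C, spans chr1:156082573-156140081, and LMNB1 spans chr5:126776623-126837020, both on the plus strand. LMNA held 38.3 to 75.5 CPM in the naive libraries (median 49.8), with 75.5 and 59.4 on serum coating and 46.9 and 38.3 on Geltrex in Ex1. That coating difference was -0.67 (interval -1.03 to -0.30, adjusted p = 0.0817), and 0.048% of genes tested were called for coating.

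LMNA was highest in E8 at day 2, with 102 and 118 CPM, and was called higher than naive there (log2 fold change 1.05, adjusted p = 1.69e-05). These 2 libraries also had the lowest TMM scaling factors of all 38 (0.903 and 0.904) and totals of 3143033 and 3385716 counts, and the part of this in the result was tested only through the other scalings. This call was lost with plain library totals (0.90), without a count filter (0.99), against naive cells on serum only (0.74), and without replicate 2 of E8 at day 2 (0.98) or replicate 2 of naive cells on Geltrex in Ex1 (0.97). LMNA was lowest in mTeSR at day 8, with 19 and 26.3 CPM, both under every naive library, and was called lower than naive (log2 fold change -1.23, interval -1.69 to -0.78, adjusted p = 2.32e-05). In mTeSR it went from 69.9 and 56.7 CPM at day 4 over 30.8 and 31.7 at day 6 to that level (change over days, adjusted p = 2.58e-06). Against naive the day 6 value was -0.77 (adjusted p = 0.00271), under the fold threshold. It was -1.12 and called against naive cells on serum only. In E8 it fell from day 2 to 39.2 and 33.2 CPM at day 8 (adjusted p = 1.46e-08). In N2B27 the day 2 libraries held 75.4 and 56.0 CPM and the day 8 libraries 32.8 and 47.5, and the change (adjusted p = 0.0011) was no longer called without replicate 1 of day 2 (adjusted p = 0.0558).

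The course of LMNA differed between mTeSR and N2B27 (adjusted p = 0.0111). At day 4 the difference was 0.50 (interval 0.14 to 0.87, adjusted p = 0.102) and at day 8 it was -0.84 (adjusted p = 0.00668), under the fold threshold. The day 8 value was called without replicate 1 of N2B27 at day 8 (-1.07, adjusted p = 0.00337) and without replicate 2 of mTeSR at day 8 (-1.09, adjusted p = 0.0133). Leaving out 1 library ended the call of the course in 4 cases, with adjusted p from 0.0588 to 0.126. These were replicate 1 of N2B27 at day 4, replicate 2 of N2B27 at day 8, and replicate 1 of mTeSR at days 4 and 8.

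LMNB1 held 163 to 239 CPM in naive libraries (median 187) and 328 to 376 CPM in the 4 libraries of day 2. The log2 fold changes against naive at day 2 were 0.87 in N2B27 (adjusted p = 1.53e-06) and 0.97 in E8 (adjusted p = 1.63e-07), just under the fold threshold, and none of the 15 combinations was called. The E8 value at day 2 passed the fold threshold under several settings, as with DESeq2 (1.03). In N2B27 LMNB1 held 351 and 333 CPM at day 8 and no change over days was called (adjusted p = 0.208). In E8 it fell to 127 and 204 CPM at day 8 (change over days, adjusted p = 5.96e-07), and the course differed from N2B27 (adjusted p = 0.000711). The day 8 difference of -1.05 (interval -1.35 to -0.75, adjusted p = 3.26e-06) was called, but the 2 E8 libraries lie apart and without replicate 1 the value was -0.74. In mTeSR at day 8 LMNB1 held 289 and 296 CPM, 0.82 above E8 (adjusted p = 0.000223) and under the fold threshold, or 1.20 and called without replicate 2 of E8.

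The 19 groups were ranked by mean level for each gene, and neighbours in rank whose libraries overlapped were counted. For VIM 10 of 18 neighbouring pairs overlapped, and for KRT19 9. For KRT18, LMNA and LMNB1 15 of 18 overlapped, for KRT8 13 and for NES 12. Among these genes KRT19 and VIM thus had the fewest overlapping neighbours. The same count was not made over all genes tested, so whether these numbers are unusual was not tested. For VIM the overlaps include naive groups tied at 0 CPM.

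Across the 19 group means of log2 CPM the 7 genes fell into patterns, described here with no test, since groups share experiments and days. KRT8 and KRT18 followed each other most closely (Pearson r = 0.982 over 19 groups), VIM followed NES (r = 0.915), and LMNA ran against KRT19 (r = -0.722). These values include the step from the naive groups to all others, and the naive values of VIM rest on the prior count. Between media VIM and NES parted, with log2 fold changes of 2.42 and 0.05 in mTeSR against N2B27 at day 4. Among 9043 genes of at least 20 CPM in a group, the most alike to KRT18 were SPRY4 (r = 0.994), THY1 (0.994) and DUSP5 (0.991), and to KRT8 FOS (0.983), KRT18 and PALM2-AKAP2 (0.979). SPRY4 and DUSP5 encode feedback inhibitors of ERK signalling, and FOS encodes a subunit of AP-1. The genes most like VIM were CERS6 (0.983), DAB1 (0.977) and BHLHB9 (0.977), those most like NES were MME (0.973), ACTA1 (0.972) and TAGLN (0.968), and those most like KRT19 were DTX3L (0.983), ZNF827 (0.958) and LAMA2 (0.957). Likeness was weaker for the lamins, with HSD17B10 (0.926), FAU (0.926) and HMOX2 (0.922) for LMNA and LAMB1 (0.861), MFSD2B (0.846) and SENP7 (0.823) for LMNB1.

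Of 27 other intermediate filament genes, 10 passed the filter, among them KRT10 as the only other keratin. DES and GFAP, the filaments of muscle and of astrocytes, never exceeded 3 counts in a library of day 8. At day 8 against naive, 4 of the 10 rose and 2 fell in N2B27, 5 rose and 2 fell in E8, and in mTeSR 4 rose and 1 fell, with median log2 fold changes of 0.60, 1.04 and 0.35 beside -0.03, 0.00 and -0.02 over all genes tested, of which 23.9, 27.5 and 25.1% were called. The neurofilament genes, which encode filaments of neurons, had the largest changes among them. NEFL rose from a naive mean of 5.17 CPM (SD 2.95, n = 6) at day 8 to 72.3 CPM in mTeSR, 40.4 in E8 and 22.1 in N2B27, and NEFM from 0.723 CPM to 36.2, 19 and 4.52. NEFH fell from 147 CPM (SD 53.9, n = 6) to 28.4, 21.2 and 35.4 CPM. NEFM was also the only gene of this list called in mTeSR against N2B27 at day 4, where 1.58% of genes tested were called. It was 4.12-fold higher (log2 fold change 2.04, SE 0.34, adjusted p = 0.000276). With N2B27 of both experiments as reference its log2 fold change was 1.35 (adjusted p = 0.0208).

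Linker and desmosome genes tie filaments to junctions and membranes. Of 12 linker and desmosome genes, all tested, mTeSR had 5 called higher and 0 lower at day 8 (median log2 fold change 0.76), E8 had 4 higher and 2 lower (median 0.23), and N2B27 had 3 higher and 1 lower (median 0.29). Over all genes tested, 25.1% were called at day 8 against naive with mTeSR, 27.5% with E8 and 23.9% with N2B27, and the medians were -0.02, 0.00 and -0.03. PPL, encoding periplakin, a linker of filaments to the cell cortex, rose from 7.48 CPM (SD 2.20, n = 6) to 65.4 CPM in mTeSR, 52.0 in E8 and 48.7 in N2B27, between 6.62-fold and 8.89-fold. EPPK1, encoding epiplakin, fell 2.49-fold in N2B27, and PKP3, encoding a plakophilin of desmosomes, fell 2.68-fold in E8. Among 18 genes of lamina partners and lamin processing the medians at day 8 were -0.36 for N2B27, -0.35 for E8 and -0.45 for mTeSR. SUN2 rose in all 3 media, from 2.86 CPM (SD 1.62, n = 6) to 17.9 CPM in N2B27, 8.15 in E8 and 10.9 with mTeSR, and SYNE1 rose in N2B27 and mTeSR. These encode the inner and outer parts of the complex that ties the nucleus to the cytoskeleton. The other 16 were not called at day 8 in any medium. In mTeSR against N2B27 at day 4 neither list had a gene called by edgeR or DESeq2, where edgeR called 1.58% of genes tested. It gave an unadjusted p under 0.05 for 1 linker and 3 lamina genes.

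**Figure D5:**
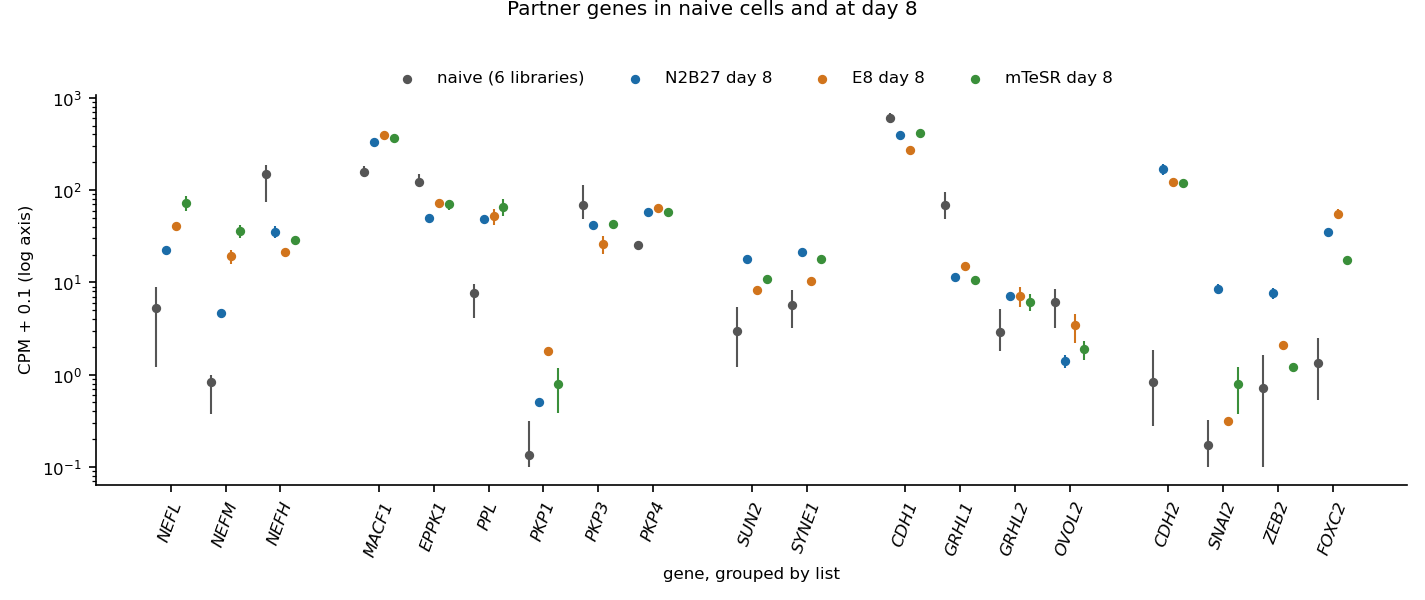
CPM plus 0.1, on a log axis, of the named genes of 5 lists in the 6 naive libraries and at day 8 in N2B27, E8 and mTeSR. Points are means and vertical lines run from the lowest to the highest library. NEFL, NEFM, PPL, SUN2 and CDH2 lie higher at day 8 in all 3 media, and NEFH and GRHL1 lower.

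Regulators of epithelial and mesenchymal state were read as well, since keratins and vimentin mark these states. Of 10 mesenchymal genes 8 passed the filter, and at day 8 against naive 6 were called higher in N2B27, 4 in E8 and 5 in mTeSR, none lower (medians 3.04, 1.27 and 1.59, with levels of single genes in the same order). CDH2, encoding N-cadherin, rose from 0.741 CPM (SD 0.661, n = 6) to 169, 122 and 118 CPM, and FOXC2 from 1.23 CPM to 35.3, 55.4 and 17.4 CPM. The study itself uses CDH2 as a marker of primed (post-implantation) pluripotency and reports that it rose as cells left the naive state. SNAI2 rose in N2B27 to 8.44 CPM, from at most 1 count in a naive library. Of 8 epithelial genes, E8 had 2 called higher and 2 lower (median -0.53), while N2B27 (median -0.53) and mTeSR (median -0.29) each had 1 called higher and 2 lower. These stand beside 27.5% of all genes tested called in E8, 23.9% in N2B27 and 25.1% in mTeSR, with medians of 0.00, -0.03 and -0.02. GRHL2, encoding a grainyhead transcription factor of epithelia, rose in all 3 media, from 2.79 CPM (SD 1.23, n = 6) to 6.98 CPM in E8 (2.40-fold, adjusted p = 0.00448), 6.98 in N2B27 (2.43-fold, adjusted p = 0.00409) and 6.04 in mTeSR (2.11-fold, adjusted p = 0.0244). Its relative GRHL1 fell from 68.5 CPM (SD 20.7, n = 6) to 11.3, 15.1 and 10.6 CPM, and CDH1, encoding E-cadherin, fell 2.24-fold in E8. At day 4, where VIM differed between mTeSR and N2B27, none of the 8 genes of either list was called, against 1.58% of genes tested. edgeR gave an unadjusted p under 0.05 for 1 mesenchymal and 2 epithelial genes there, and DESeq2 called none.

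Trophoblast and amnion, which also express keratins 8, 18 and 19, were read by their own markers. Of 8 trophoblast markers 6 passed the filter, and at day 8 mTeSR had 1 called higher, E8 had 2 called higher and 1 lower, and N2B27 had 5 called higher, where 25.1, 27.5 and 23.9% of all genes tested were called in these media. The list summed to 6.83 to 10.1 CPM in naive cells, 13.7 to 15.2 in mTeSR, 15.7 to 19.5 in E8 and 75.0 to 91.0 in N2B27. TP63 never exceeded 3 counts in a library of naive cells or of day 8. Of 5 amnion markers 4 passed the filter, of which mTeSR had 3 called higher and 1 lower, E8 had 2 higher and 1 lower, and N2B27 had 3 higher, and the list summed to 3.60 to 10.0 CPM in naive cells and 8.68 to 16.1 CPM at day 8. At day 4 the trophoblast list summed to 28.0 to 29.0 CPM in mTeSR, 29.0 to 29.99 in N2B27 of Ex1 and 27 to 29.2 in E8. In Ex2 it summed to 42.7 to 44 CPM in N2B27, 17.5 to 23.8 with XAV and 27.7 to 30.3 with FAX. The part of such cells in the keratin levels was not tested.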

How the data were processed

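QuantSeq 3′ libraries of Shef6 were read on an Illumina instrument as single reads of 50 bases. Per the labels, the submitters' processing notes name FastQC 0.11.9, STAR 2.7.10a, Salmon 1.9.0, DESeq2 and the hg38 genome. The authors deposited 1 table of whole-number counts per gene and library. Whether these are rounded Salmon estimates is not given in the sources used here.

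Groups were taken from the labels. edgeR 4.0.16 in R 4.3.3 (filterByExpr, TMM scaling, quasi-likelihood F-test, Benjamini-Hochberg adjustment over all 16674 genes tested) was fitted to all 38 libraries, with naive libraries pooled for comparisons with them, and otherwise 19 groups. F-tests over several days were called on adjusted p alone. The biological coefficient of variation was 10%, and intervals of count ratios and limits from a count of 0 cover counting error only. Gene positions are those of GENCODE on GRCh38. DESeq2 1.42.0, other scalings, filters, references, fits and a replicate block were alternatives. Per list, the 3 largest called changes at day 8, or in mTeSR against N2B27 at day 4, could be named, and per gene the 3 most alike. The genes, lists and tests were chosen with earlier results of these data known. The study calls these replicates technical in most legends and biological in one, and the labels do not settle which, so p-values may reflect technical spread only. Marker lists covered pluripotent and naive cells, trophoblast, amnion, hypoblast or endoderm, mesoderm, neural progenitors and fibroblasts.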

Additional observations from a re-analysis of the deposited data

Results flagged for a closer look

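Among the 6 naive libraries, VIM in replicate 2 on Geltrex of Ex1 lay apart from the others, its gap to the nearest library being the whole range of the group (ratio 1), which here is 3 counts against 0. LMNB1 in replicate 1 on serum coating, at 239 CPM, also lay apart, with a gap of 0.644 of the range. For LMNB1, chance sets a library apart in about 5% of such groups. For VIM that rate does not apply, since any single library above 0 among zeros gives a ratio of 1.

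The course over days differed between E8 and N2B27 for KRT19 (edgeR F-test of medium by day, adjusted p = 0.00308), VIM (8.32e-05), NES (0.0114) and LMNB1 (0.000711). Between mTeSR and N2B27 it differed for VIM (9.71e-06) and LMNA (0.0111). Both sets of tests share the N2B27 libraries.

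Rows of KRT18 pseudogenes, which no comparison above uses by themselves, summed to a median of 59.34 CPM in the 32 libraries outside naive cells (28.5 to 186 CPM) and to 2.12 CPM in the 6 naive libraries.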

How the results depend on the processing

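Of 77 calls of the 7 genes in comparisons of 2 groups, 71 held in every setting tried, and the exceptions are given beside their results. The log2 fold change of VIM between mTeSR and N2B27 stayed between 1.83 and 2.51 at day 4, 0.41 and 0.83 at day 6, and -0.41 and -0.19 at day 8. The number of genes called against naive cells at day 8 was 5 in N2B27, 5 in E8 and 6 in mTeSR in every setting. Of 147 values that were not called, 36 changed sign or went to 0 in some setting and 6 were called in one. Tests over days stand outside these counts. Of these, 2 calls of LMNA were lost in some setting and 5 uncalled ones were gained, among them KRT8 over days in E8 (adjusted p = 0.0255) and in mTeSR (0.0375), each without 1 library, and the LMNA course in E8 against N2B27 (0.0401 to 0.0459). With the replicate number as a block the VIM values were 2.42, 0.61 and -0.31, and the block changed no call. Deviations of same-numbered libraries correlated at -0.0583 to 0.183 (median 0.011) over 17 pairs of compared groups. Over all 171 pairs of groups the range was -0.35 to 0.258 (median 0.0031). The low medians gave no sign that the numbers pair the libraries, but they cannot exclude it.

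VIM between naive groups had no value without replicate 2 on Geltrex in Ex1, which held all 3 naive counts. Values in the text also changed sign when 1 library was left out, with the cause not tested. Their ranges over the left-out libraries were -0.104 to 0.0312 (0.0224 without replicate 1 of N2B27) for KRT18 in E8 against N2B27 at day 8, -0.104 to 0.0147 for KRT18, -0.307 to 0.17 (0.0352 without replicate 2 of N2B27) for KRT8 and -0.0141 to 0.113 for NES in mTeSR against N2B27 at day 4, -0.0321 to 0.186 for VIM in mTeSR against E8 at day 6, and -0.0753 to 0.172 (-0.024 without replicate 2 of FAX) for VIM in FAX against XAV. With N2B27 of both experiments as reference, NES in mTeSR was -0.0308 at day 4.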
